A study of Mus musculus with 6 samples.

Results

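The genes described here are 9 enzymes by which the liver breaks down the aromatic amino acids tryptophan and tyrosine, the latter also being the product of phenylalanine. They were taken by symbol from the table of raw counts, in which all 9 of 9 were found among 20140 listed genes, and all 9 passed the filter on low counts. Tdo2, Ido2, Kmo, Kynu, Haao and Acmsd belong to tryptophan breakdown, and Tat, Hpd and Hgd to tyrosine breakdown. No member carries out the hydroxylation of phenylalanine itself. RNA was sequenced from the livers of 6 mice at day 21, with 2 livers per group. Sham mice are labelled as control and sham, and the study describes such mice as sham-operated. The intra-C mice carried CT26 tumors, a mouse colorectal carcinoma line, implanted into the cecum, and are referred to as the premetastatic niche (PMN) group. The intra-S mice had CT26 cells injected into the spleen and are referred to as the metastasis group. The labels give no more than intra-C, intra-S or control, so that the routes and the names PMN and metastasis rest on the study's description of its models, which also gives BALB/c mice for both. Tumor site, route and disease stage changed together between the tumor groups and cannot be told apart.

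The liver is the main site of aromatic amino acid breakdown, and most of these enzymes are strongly enriched in hepatocytes. In tryptophan breakdown the indole ring is opened to give kynurenine, which is hydroxylated, cleaved and opened again, until a branch point leads either to NAD synthesis or to complete oxidation. In tyrosine breakdown the amino group is removed, the remaining ring is rearranged to homogentisate, and the ring is then opened on the way to fumarate and acetoacetate. Tdo2 and Tat, which start the pathways, are classic targets of glucocorticoids in the liver.

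The libraries held between 32838321 and 43368309 counts on genes. Levels are given as CPM, counts scaled by library total after correction with edgeR's TMM factors, which lay between 0.884 and 1.14. The lowest count of any member in any liver was 284, for Ido2 in metastasis liver 1. The quasi-likelihood test of edgeR was run on 16370 of the listed genes with all 6 livers in 1 fit, and a gene counted as called, higher or lower, when its p after Benjamini-Hochberg adjustment was under 0.05. Fold changes are on the log2 scale with their standard error (SE). Livers of a group differed by more than counting noise, least in sham and most in metastasis (chi-square per degree of freedom of 27.2 in sham, 80.9 in PMN and 372 in metastasis). The p-values measure the spread between livers of a group, which the series calls biological replicates. For each gene this spread was estimated over all groups together. A comparison of PMN with sham livers thus also rests on the spread of the metastasis livers.

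Levels between genes were compared in TPM, which is scaled by gene length. In the sham livers, Hpd had the highest level with 4010 ± 152 TPM (SD, n = 2), rank 29 of the 20140 listed genes. Tdo2 followed with 1396 ± 103 TPM and Tat with 1321 ± 616 TPM, and the sham values of these enzymes overlapped. Hgd stood at 696 ± 55.5 TPM, Haao at 175 ± 1.82 TPM and Kmo at 161 ± 2.17 TPM. Kynu, Ido2 and Acmsd were the least abundant, with 39.0 ± 1.86, 14.6 ± 0.497 and 11.0 ± 0.738 TPM. Apart from Tdo2 and Tat, no neighbors in this order overlapped between the sham livers. The order differed in the tumor groups, where Tat led with 2948 ± 860 TPM in PMN and 2158 ± 883 TPM in metastasis livers, ahead of Hpd with 2051 ± 31.1 and 1918 ± 875 TPM. In the metastasis livers the ranges of Tat, Hpd and Tdo2 overlapped, so that their order there was not separated by the data. Acmsd, last in sham, stood seventh of the members in both tumor groups, although its range overlapped with that of Kynu in each.

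**Figure D1:**
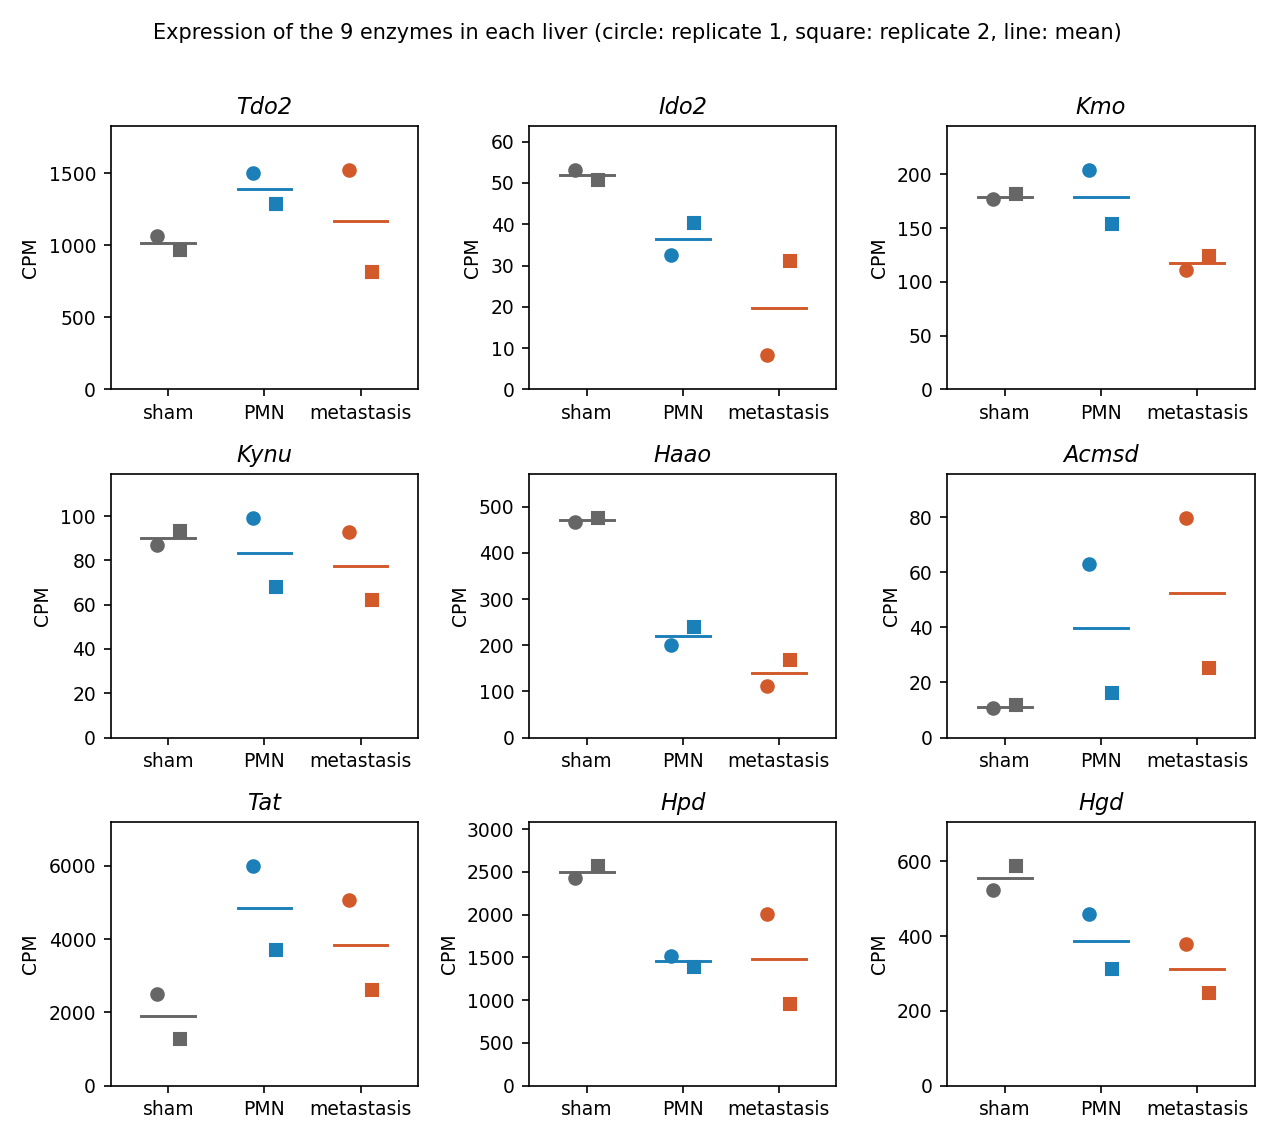
Level of each of the 9 enzymes in CPM (vertical axis, TMM-scaled, starting at 0) in the 2 sham, 2 PMN and 2 metastasis livers; circles are replicate 1, squares replicate 2 and lines group means. Haao is higher in both sham livers, which are nearly equal, than in any tumor liver, whereas Acmsd and Ido2 differ widely between livers of one tumor group.

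Compared with sham, 0 of the 9 enzymes were called in PMN livers, beside 4.92% of all tested genes called higher, 2.38% called lower and 7.3% called in either direction. At an unadjusted p under 0.05 edgeR gave 3 members, Haao, Acmsd and Tat, beside 27% of all tested genes, and DESeq2 called Tat higher and Haao lower, beside 17.2% of all tested genes. In metastasis livers, 1 of the 9, Haao, was called lower, beside 6.78% of all tested genes called higher, 3.95% called lower and 10.7% called in either direction. At an unadjusted p under 0.05 there were 5 members (Haao, Ido2, Kmo, Acmsd and Hgd), beside 30.2% of all tested genes. The share of members called, 0 and 1 of 9, was close to that of all genes. The median log2 fold change of the members was -0.11 in PMN and -0.61 in metastasis livers, against 0.01 and 0.04 for all tested genes. In PMN livers, Tdo2, Acmsd and Tat lay above both sham livers, and Ido2, Haao, Hpd and Hgd below both, counts of 3 and 4 beside 34.4% and 34% of all tested genes that lay fully above or below. In metastasis livers, Acmsd and Tat lay above both sham livers, and Ido2, Kmo, Haao, Hpd and Hgd below both, beside 30.4% and 30% of all genes. These positions are in CPM. On the TPM scale Tat in metastasis livers overlapped with sham. Kynu in both tumor groups and Kmo in PMN livers lay below both sham livers on that scale. Both comparisons used the same sham livers. In fits that left out 1 liver, the lone liver of that group was assumed to vary like the other groups. Fits without metastasis liver 1 or 2 called many more genes, 26.5% and 26.3% of all tested genes in PMN and 16.5% and 32.7% in metastasis livers, and the calls of members in these fits stand beside those shares. Because the tissue was bulk liver, fewer cells of a type and less RNA per cell cannot be told apart.

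**Figure D2:**
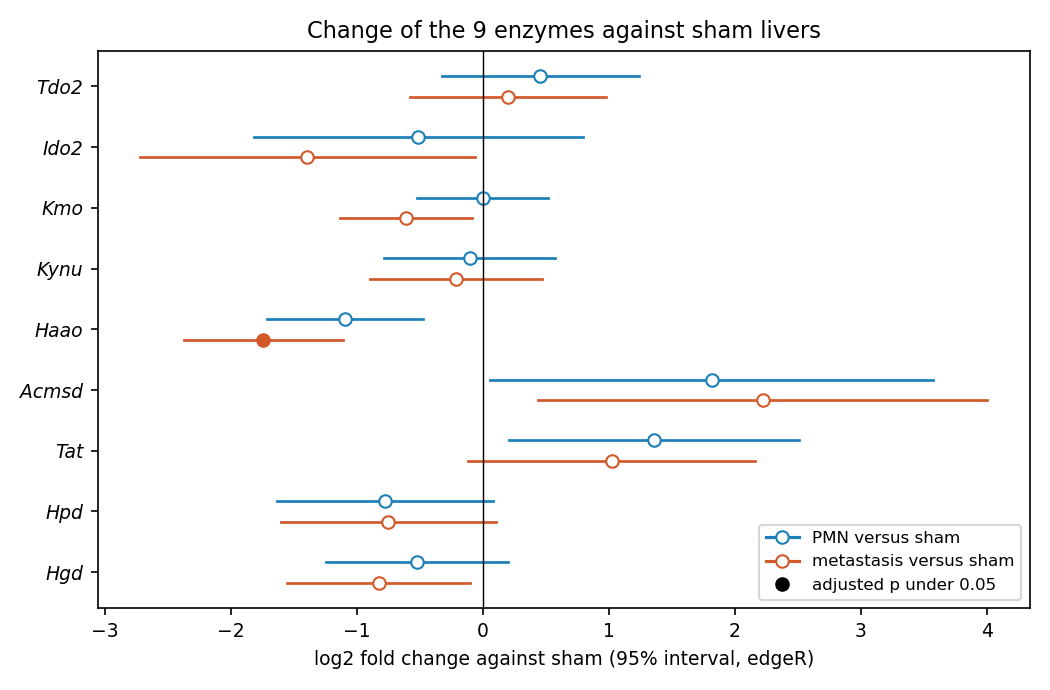
Log2 fold change of each enzyme against sham (horizontal axis) in PMN and metastasis livers, with 95% intervals from edgeR; filled points have an adjusted p under 0.05. Haao in metastasis livers is the 1 filled point, and the widest intervals are those of Acmsd.

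Tdo2 (chr3:81958412-81975728), tryptophan dioxygenase, opens the indole ring in hepatocytes and carries most of the liver's tryptophan breakdown. It stood at 1067 and 963 CPM in sham, 1497 and 1288 CPM in PMN livers and 1521 and 812 CPM in metastasis livers. Both PMN livers lay above sham, whereas the metastasis livers lay on either side of it. The log2 fold change was 0.46 in PMN (SE 0.32, edgeR adjusted p = 0.415) and 0.20 in metastasis livers (SE 0.32, adjusted p = 0.717), and neither was called. With library totals in place of TMM, the metastasis value was -0.10, and with TMM it was -0.32 without metastasis liver 1 (adjusted p = 0.223) and 0.58 without metastasis liver 2 (adjusted p = 0.0285). Without metastasis liver 1 or 2 in the fit, the PMN difference was called (adjusted p = 0.0379 and 0.0409). Ido2 (chr8:24531892-24576414), an indoleamine dioxygenase that catalyzes the same step, stood at 53.1 and 50.7 CPM in sham, 32.6 and 40.2 CPM in PMN, and 8.28 and 31.1 CPM in metastasis livers. All 4 tumor livers were below both sham livers, and metastasis liver 1 was far below metastasis liver 2. The log2 fold change was -0.51 (SE 0.54, adjusted p = 0.591) in PMN and -1.40 (SE 0.55, adjusted p = 0.150) in metastasis livers. Without metastasis liver 1 the latter was -0.73 (adjusted p = 0.0409) and without metastasis liver 2 it was -2.65 (adjusted p = 0.000302), both past the threshold, as were the PMN values without the same livers (adjusted p = 0.0456 and 0.0447). Ido1, the related dioxygenase of immune and other cells, had between 0 and 0.368 CPM in the 6 livers and was not tested. On the TPM scale, Tdo2 exceeded Ido2 by 98.4 and 92.9 times in sham, 225 and 157 times in PMN, and 899 and 128 times in metastasis livers.

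Kynurenine is then hydroxylated by Kmo and cleaved by Kynu. Kmo (chr1:175632193-175660853) had 177 and 181 CPM in sham, 204 and 154 CPM in PMN and 111 and 124 CPM in metastasis livers. Its PMN livers surrounded the sham values, and its metastasis livers lay below them. The metastasis log2 fold change was -0.61 (SE 0.22, edgeR adjusted p = 0.121) and the PMN log2 fold change was -0.0032 (SE 0.22, adjusted p = 0.995). The former was -0.53 without metastasis liver 1 and -0.69 without metastasis liver 2. With limma on log2(TPM + 1) and log2(TPM + 0.1) it was called (adjusted p = 0.0356 and 0.0342), beside 13.7% and 13.9% of all tested genes. Kynu (chr2:43555258-43683048) had 86.7 and 93.0 CPM in sham, 99.0 and 67.9 CPM in PMN, and 93.0 and 62.0 CPM in metastasis livers. Its groups overlapped, with log2 fold changes of -0.11 (SE 0.28, adjusted p = 0.842) in PMN and -0.21 (SE 0.28, adjusted p = 0.651) in metastasis livers.

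Haao (chr17:83831348-83848981), hydroxyanthranilate dioxygenase, forms the unstable intermediate from which quinolinate and then NAD are made. Its level in sham livers was 467 and 475 CPM, against 201 and 240 CPM in PMN livers and 113 and 168 CPM in metastasis livers. The groups did not overlap, and within sham the 2 livers were nearly equal. The means were 471 ± 5.75, 221 ± 27.7 and 141 ± 39.4 CPM (SD, n = 2 each). Haao fell 3.35-fold in metastasis livers (log2 fold change -1.74, SE 0.26, 95% interval -2.37 to -1.11, edgeR adjusted p = 0.0153). In PMN livers the difference was 2.14-fold (log2 fold change -1.10, SE 0.26, 95% interval -1.71 to -0.48), and its adjusted p of 0.0553 missed the threshold. The metastasis call was lost with only the 2 compared groups in the fit (adjusted p = 0.0542), without sham liver 1 or 2 (0.133 and 0.128) and without PMN liver 1 or 2 (0.0500395 and 0.0508), while the log2 fold change stayed between -2.07 and -1.48 over all 15 alternatives. The PMN difference was called in 7 of the 15, including DESeq2 and without metastasis liver 1 or 2 (adjusted p = 0.00206 and 0.00241), with log2 fold changes between -1.35 and -0.97. Relative to Kmo, the ratio of TPM values was 1.08 in both sham livers, 0.406 and 0.643 in PMN, and 0.419 and 0.561 in metastasis livers.

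The 250 bases before the Haao start are shown because it was the one member called, with promoter sequence from RefSeq (GRCm38.p6, the assembly of mm10) written from 5′ to 3′ on the gene's strand. RefSeq windows were at hand for 7 of the 9 members, all but Ido2 and Kynu. The windows reach from 250 bases before to 50 bases after the start that the table uses, which for Haao, Tat and Hgd lies inside the annotated span of the gene. Capitals mark one arm of a glucocorticoid receptor site (AGAACA, here on the opposite strand as TGTTCT, at -164) and one arm of an HNF1 site (GTTAAT, here as ATTAAC, at -41), positions being counted from the start. Each is a short part of the factor's full palindromic site, which was not searched for.
Haao, chr17:83846791-83847040, minus strand: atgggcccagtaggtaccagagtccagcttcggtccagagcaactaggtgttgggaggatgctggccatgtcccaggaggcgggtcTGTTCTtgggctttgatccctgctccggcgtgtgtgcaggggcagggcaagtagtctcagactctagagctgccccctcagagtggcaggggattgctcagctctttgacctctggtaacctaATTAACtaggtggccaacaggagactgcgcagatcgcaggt

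Both strands of each window of 300 bases were searched for these arms and for C/EBP (TTGCNNAA) and STAT (TTCNNNGAA) motifs. Of 32851 windows in the table, 7.1% held the HNF1 arm, 19% the glucocorticoid receptor arm, 10.8% the C/EBP motif and 8.3% the STAT motif, so that such matches are frequent. The other members with a match were Kmo, with a glucocorticoid receptor arm at 15, and Hgd, with C/EBP motifs at -49 and 15. The Tdo2, Acmsd, Tat and Hpd windows held none of these letters.

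Acmsd (chr1:127729413-127767564) removes a carboxyl group from the product of Haao and so directs it away from NAD synthesis. It stood at 10.7 and 11.8 CPM in sham, 63.1 and 16.2 CPM in PMN, and 79.6 and 25.4 CPM in metastasis livers. All 4 tumor livers were above both sham livers, but replicate 1 exceeded replicate 2 by 3.89 times in PMN and 3.13 times in metastasis livers. The log2 fold change was 1.82 in PMN (SE 0.73, edgeR adjusted p = 0.175) and 2.22 in metastasis livers (SE 0.74, adjusted p = 0.106). Neither was called with edgeR, whereas DESeq2 called the metastasis difference (adjusted p = 0.0101), within a range of 0.0101 to 0.384 over the alternatives. Without PMN liver 1, the PMN log2 fold change was 0.53. Without metastasis liver 1 or 2, the PMN difference was called (adjusted p = 0.0466 and 0.0487), and without metastasis liver 2 so was the metastasis difference (log2 fold change 2.82, adjusted p = 0.0143). The metastasis log2 fold change was 1.18 without metastasis liver 1 (adjusted p = 0.251). The ratio of Haao to Acmsd, the enzymes that make and divert the same intermediate, was 16.6 and 15.3 on the TPM scale in sham livers. It was 1.21 and 5.63 in PMN livers and 0.538 and 2.52 in metastasis livers. Every tumor liver was below both sham livers, and in metastasis liver 1 the Acmsd transcript exceeded that of Haao. With 2 livers against 2, the smallest p that an exact two-sided permutation test can give is 0.333, so that these ratios were not tested.

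**Figure D3:**
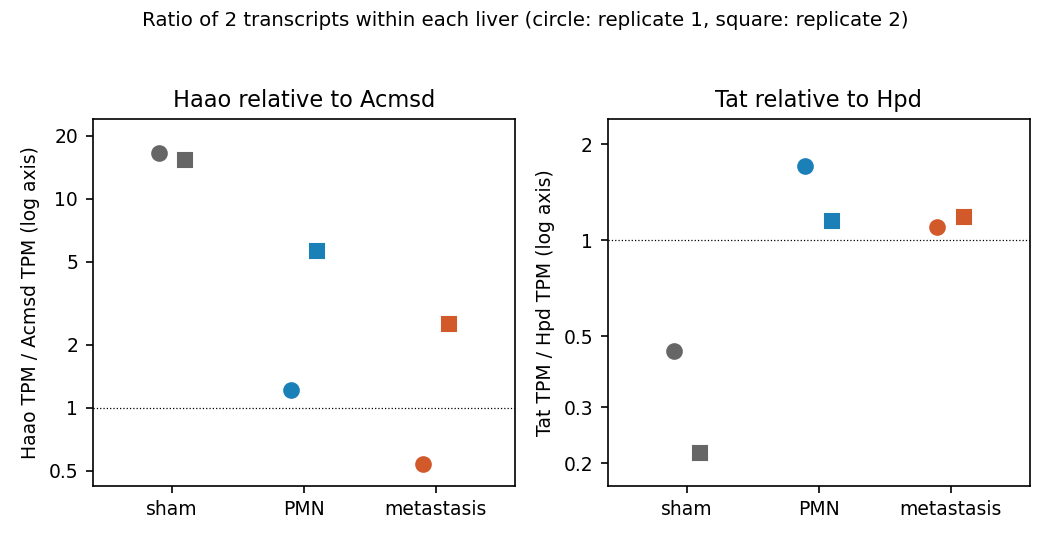
Ratio of TPM values within each liver on log axes, Haao to Acmsd on the left and Tat to Hpd on the right; circles are replicate 1, squares replicate 2, and the dotted line marks equal levels. Haao to Acmsd is 15.3 or more in sham and 5.63 or less in tumor livers, and Tat to Hpd is 0.450 or less in sham and 1.10 or more in tumor livers.

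Tat (chr8:109986078-109999804), tyrosine aminotransferase, removes the amino group of tyrosine in the step that limits the pathway. It stood at 2509 and 1267 CPM in sham, 5985 and 3689 CPM in PMN, and 5062 and 2603 CPM in metastasis livers. In CPM all 4 tumor livers were above both sham livers, metastasis liver 2 only slightly above sham liver 1. On the TPM scale metastasis liver 2 lay below sham liver 1 (1534 against 1756 TPM), so that metastasis and sham livers overlapped. The log2 fold change was 1.36 in PMN (SE 0.48, edgeR adjusted p = 0.134) and 1.02 in metastasis livers (SE 0.47, adjusted p = 0.205). Replicate 1 exceeded replicate 2 by 1.98 times in sham, 1.62 times in PMN and 1.94 times in metastasis livers. Hpd (chr5:123171807-123182723), hydroxyphenylpyruvate dioxygenase, converts the product of Tat to homogentisate. It stood at 2427 and 2567 CPM in sham, 1519 and 1392 CPM in PMN, and 2009 and 960 CPM in metastasis livers, all 4 tumor livers being below both sham livers. The log2 fold change was -0.78 in PMN (SE 0.36, adjusted p = 0.219) and -0.75 in metastasis livers (SE 0.36, adjusted p = 0.213). Hgd (chr16:37579742-37632026), homogentisate dioxygenase, opens the ring. It stood at 523 and 587 CPM in sham, 460 and 312 CPM in PMN, and 379 and 247 CPM in metastasis livers, again below sham in all 4 tumor livers. The log2 fold change was -0.52 (SE 0.30, adjusted p = 0.317) in PMN and -0.83 (SE 0.30, adjusted p = 0.128) in metastasis livers. Leaving out PMN liver 1 or 2 gave -0.83 and -0.25 for the former. None of the 6 differences of these enzymes from sham was called with edgeR, TMM scaling and group as the only term over all 6 livers. DESeq2 called Tat in PMN livers (adjusted p = 0.0367), and Hgd in metastasis livers was called with edgeR on library totals (0.0462) and with limma on both TPM scales (0.0454 and 0.0441). When the fit held PMN and sham livers alone, Tdo2 and Tat were called higher and Ido2, Haao and Hpd lower in PMN livers, beside 30.5% of all genes called in that fit. Without metastasis liver 1 or 2, the PMN differences of Tat (adjusted p = 0.0271 and 0.0286) and Hpd (0.00369 and 0.00426) passed. Of the metastasis differences, that of Tat was 1.42 and passed without metastasis liver 2 (adjusted p = 0.0336), and was 0.47 without metastasis liver 1 (adjusted p = 0.489). That of Hpd was -1.37 without metastasis liver 1 (adjusted p = 0.00151) and -0.31 without metastasis liver 2 (adjusted p = 0.133). That of Hgd was -1.16 (adjusted p = 0.0211) and -0.55 (adjusted p = 0.130) without the same livers.

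In CPM, the starting enzyme of tyrosine breakdown thus lay above both sham livers and the enzymes after it below both. None of these differences was called with edgeR, TMM scaling and group as the only term. On the TPM scale Tat overlapped with sham in metastasis livers. The ratio of Tat to Hpd on the TPM scale was 0.450 and 0.215 in sham, 1.72 and 1.15 in PMN, and 1.10 and 1.18 in metastasis livers. The ratio of Hpd to Hgd overlapped between groups, with 5.94 and 5.60 in sham, 4.23 and 5.71 in PMN, and 6.80 and 4.98 in metastasis livers. The 250 bases before the starts of these consecutive enzymes are given side by side, with the C/EBP match of Hgd (TTGTGCAA, opposite strand) in capitals.
Tat, chr8:109990186-109990435, plus strand: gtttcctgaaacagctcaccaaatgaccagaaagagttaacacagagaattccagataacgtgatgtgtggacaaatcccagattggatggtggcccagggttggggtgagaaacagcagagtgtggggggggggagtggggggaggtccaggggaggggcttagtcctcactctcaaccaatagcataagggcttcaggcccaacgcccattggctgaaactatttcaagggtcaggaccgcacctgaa
Hpd, chr5:123182724-123182973, minus strand: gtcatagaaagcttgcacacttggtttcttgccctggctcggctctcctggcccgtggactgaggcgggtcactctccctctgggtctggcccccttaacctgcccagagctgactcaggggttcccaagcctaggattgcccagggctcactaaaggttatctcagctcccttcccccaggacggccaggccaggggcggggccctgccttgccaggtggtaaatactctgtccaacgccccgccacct
Hgd, chr16:37579903-37580152, plus strand: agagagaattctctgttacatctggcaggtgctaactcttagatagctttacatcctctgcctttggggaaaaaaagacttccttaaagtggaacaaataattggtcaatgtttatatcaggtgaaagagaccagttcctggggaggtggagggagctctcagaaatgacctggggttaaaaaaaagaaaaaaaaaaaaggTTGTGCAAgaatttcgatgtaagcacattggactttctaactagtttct

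Other genes of the same pathways were examined in a list of 14 for tryptophan breakdown and NAD synthesis, of which 11 were tested, and a list of 11 for tyrosine breakdown and the tetrahydrobiopterin cofactor of aromatic amino acid hydroxylation, of which 10 were tested. Of the tryptophan genes, 1 was called higher and 2 lower in PMN livers, and 0 higher and 4 lower in metastasis livers. Their median log2 fold changes were -0.68 and -0.57. Afmid, which releases kynurenine after the Tdo2 step, stood at 175 and 183 CPM in sham, 46.8 and 69.5 CPM in PMN, and 53.3 and 39.6 CPM in metastasis livers. It fell by 1.62 on the log2 scale in PMN (SE 0.27, edgeR adjusted p = 0.0253) and by 1.95 in metastasis livers (SE 0.28, adjusted p = 0.0137). Aadat, an aminotransferase that converts kynurenine to kynurenic acid, stood at 85.0 and 90.1 CPM in sham, 39.5 and 38.4 CPM in PMN, and 45.8 and 33.6 CPM in metastasis livers. It also fell in both, by 1.17 (adjusted p = 0.0324) and 1.14 (adjusted p = 0.0279). Gcdh, which acts on glutaryl-CoA further down the oxidative branch, fell in metastasis livers by 1.07 (adjusted p = 0.0231). Its log2 fold change in PMN livers was -0.80, which was not called (adjusted p = 0.0561). The other kynurenine aminotransferases, Kyat1 and Kyat3, were called in different groups. Kyat1 stood at 62.2 and 70.3 CPM in sham and at 134 and 142 CPM in PMN livers, where it rose by 1.06 (SE 0.20, adjusted p = 0.0349), and at 76.6 and 93.5 CPM in metastasis livers (log2 fold change 0.36, adjusted p = 0.282). Kyat3 stood at 451 and 409 CPM in sham, 403 and 358 CPM in PMN, and 223 and 238 CPM in metastasis livers, where it fell by 0.90 (SE 0.20, adjusted p = 0.0399). Metastasis and PMN livers did not pass the test of their difference for either gene (log2 differences of -0.70 and -0.72, adjusted p = 0.298 and 0.292). The call of Kyat1 was lost with library totals in place of TMM and on TPM values.

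Of the tyrosine and cofactor genes, 0 were called higher in either group, 2 lower in PMN and 4 lower in metastasis livers. Their median log2 fold changes were -0.78 and -1.05. Qdpr, which regenerates tetrahydrobiopterin, stood at 344 and 384 CPM in sham, 130 and 140 CPM in PMN, and 118 CPM in both metastasis livers. It fell by 1.43 in PMN (SE 0.19, edgeR adjusted p = 0.0154) and 1.63 in metastasis livers (SE 0.19, adjusted p = 0.00912). Gchfr, the feedback regulator of the enzyme that starts the synthesis of the cofactor, stood at 82.3 and 84.6 CPM in sham, 36.8 and 37.6 CPM in PMN, and 37.0 and 31.5 CPM in metastasis livers. It fell by 1.16 (adjusted p = 0.0229) and 1.29 (adjusted p = 0.0147). Pcbd1, a dehydratase of the same recycling that also binds HNF1 factors, fell in metastasis livers by 1.25 (adjusted p = 0.0442). Gstz1, which isomerizes the product of Hgd, fell there by 0.86 (adjusted p = 0.0496), a call lost in 8 of the 15 alternatives, among them TMM without the 100 most abundant genes. In PMN livers the log2 fold changes of Pcbd1 and Gstz1 were -1.03 and -0.61, which were not called (adjusted p = 0.0830 and 0.130). Together with the 9 members, 30 genes of these pathways were tested, of which 1 was called higher and 4 lower in PMN livers and 0 higher and 9 lower in metastasis livers, beside 2.38% and 3.95% of all tested genes called lower. Their median log2 fold changes were -0.59 and -0.75. Of all tested genes at a mean of 10 CPM or more, 4.2% and 6.5% were called lower. Without sham liver 1 or 2, edgeR called 0 genes of the whole table in either comparison, with 2410 and 2238 genes at an unadjusted p under 0.05 in PMN and 2777 and 2751 in metastasis livers. Without PMN liver 1 or 2, few of all tested genes were called in PMN livers, and the PMN calls of these 30 genes were lost. Fewer of all tested genes were then called in metastasis livers as well, and most metastasis calls of these 30 were lost. Without metastasis liver 1 or 2, 14 of the 21 genes other than members were called lower in PMN livers, and 12 and 15 in metastasis livers, beside 12% of all genes called lower in PMN in each fit and 6.93% and 15.4% in metastasis livers.

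**Figure D4:**
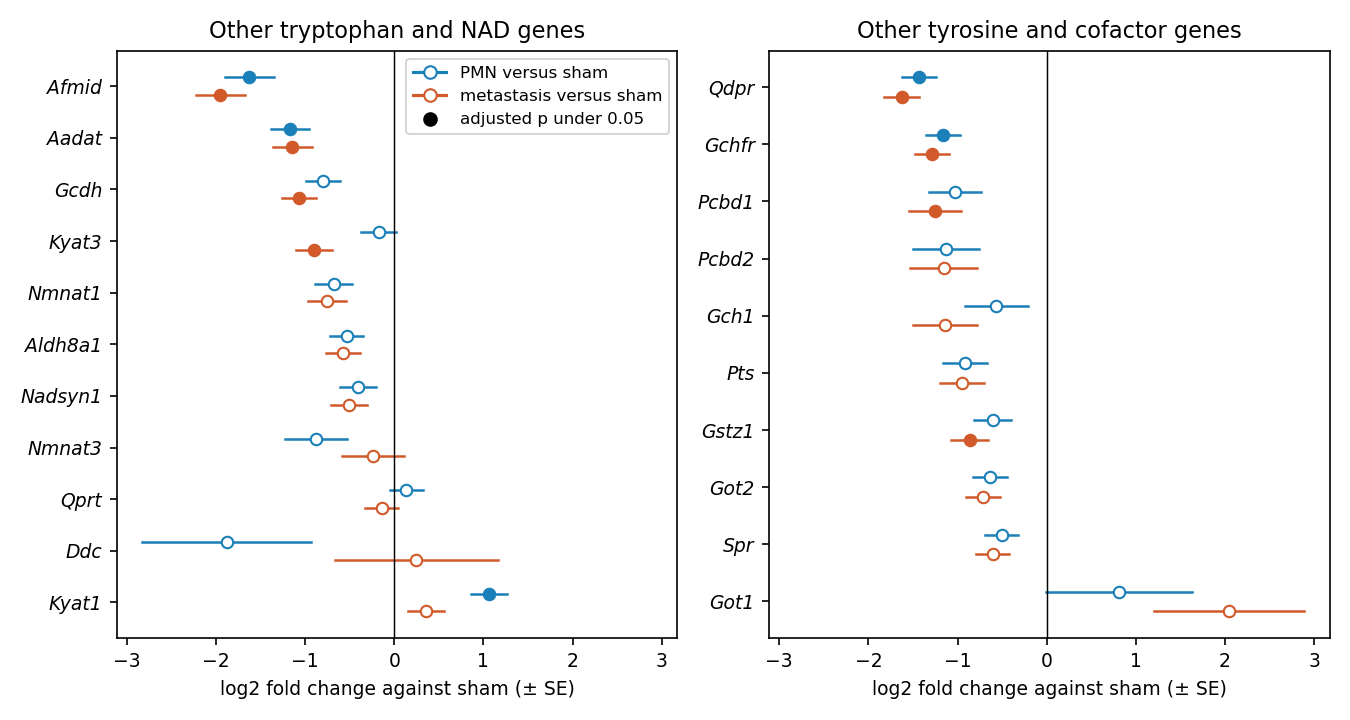
Log2 fold change against sham (horizontal axis, bars ± SE) of the other tested genes of tryptophan breakdown and NAD synthesis (left) and of tyrosine breakdown and the tetrahydrobiopterin cofactor (right); filled points have an adjusted p under 0.05. In each panel 9 of the genes lie below 0 in metastasis livers.

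The transport and breakdown of other amino acids were compared in the same way. Of 7 tested transporters of aromatic amino acids, 2 were called higher in both groups and 0 lower, beside 4.92% and 6.78% of all tested genes called higher. Slc43a2 stood at 5.47 and 5.27 CPM in sham, 15.3 and 18.2 CPM in PMN, and 14.9 and 9.66 CPM in metastasis livers (log2 fold changes 1.64 and 1.19, edgeR adjusted p = 0.0262 and 0.0442). Slc7a8 stood at 1.13 and 1.97 CPM in sham, 5.17 and 6.46 CPM in PMN, and 6.47 and 5.64 CPM in metastasis livers (1.90 and 1.96, adjusted p = 0.0341 and 0.0254). The calls of Slc43a2 held in 9 and 6 of the 15 alternatives and those of Slc7a8 in 10 of 15 in each group. On log2(TPM + 1), which understates changes of genes as low as these, the values were 0.98 and 0.55 for Slc43a2 and 0.78 and 0.75 for Slc7a8. Of 15 genes for the breakdown of other amino acids, 2 were called lower in PMN and 4 in metastasis livers, and 0 higher. The shares of all tested genes called lower were 2.38% and 3.95%. Aldh4a1 of proline breakdown fell by 1.17 and 2.15 and Amdhd1 of histidine breakdown by 1.43 and 1.65 in PMN and metastasis livers. Gls2, the liver glutaminase, and Prodh, proline dehydrogenase, fell in metastasis livers by 1.55 and 2.34. In PMN livers their log2 fold changes were -1.23 and -1.61, which were not called (adjusted p = 0.0500409 and 0.0790). The metastasis log2 fold change of Prodh was -3.22 without metastasis liver 1 and -1.80 without metastasis liver 2. The metastasis calls of both genes were lost without any 1 of the sham or PMN livers. The median log2 fold change of these 15 genes was -0.68 in PMN and -0.69 in metastasis livers, near that of the 30 aromatic pathway genes.

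Glucocorticoids and cAMP induce Tdo2 and Tat, and kynurenine products can activate the aryl hydrocarbon receptor. Of all tested genes, 4.92% were called higher in PMN and 6.78% in metastasis livers. Of 9 tested glucocorticoid or cAMP responsive genes, 1 was called higher in PMN and 3 in metastasis livers, and 0 lower. All 9 lay above 0 in PMN livers, and 7 above and 2 below (Pck1 and Tsc22d3) in metastasis livers, where Pck1, at 1893 and 2837 CPM against 3763 and 2879 CPM in sham, was not called (adjusted p = 0.373). Igfbp1, an insulin-like growth factor binding protein of hepatocytes, stood at 71.8 and 20.6 CPM in sham, 4472 and 770 CPM in PMN, and 4207 and 1387 CPM in metastasis livers (log2 fold changes 5.83 and 5.92, edgeR adjusted p = 0.0382 and 0.0307). With 1 liver left out these values lay between 4.06 (without PMN liver 1) and 6.998 (without sham liver 1) in PMN and between 4.91 (without metastasis liver 1) and 7.09 (without sham liver 1) in metastasis livers. Fkbp5, a glucocorticoid receptor cochaperone, and Sgk1, a serum and glucocorticoid regulated kinase, rose in metastasis livers by 1.94 (adjusted p = 0.0466) and 4.25 (adjusted p = 0.0427), calls that held in 6 and 8 of the 15 alternatives. These log2 fold changes were 1.08 and 2.46 without metastasis liver 1. In PMN livers they were 1.68 and 3.07 and were not called (adjusted p = 0.0771 and 0.0952), and the test of metastasis against PMN livers did not pass for either gene (adjusted p = 0.812 and 0.563). Igfbp1 had its higher value in replicate 1 of each group, as Tat did. Of 7 tested aryl hydrocarbon receptor genes, 2 were called lower and 0 higher in each tumor group, while 4 lay below 0 and 3 above in each. The shares of all tested genes called lower were 2.38% in PMN and 3.95% in metastasis livers. Cyp1a2, a cytochrome P450, stood at 1466 and 502 CPM in sham, 67.2 and 59.1 CPM in PMN, and 16.8 and 39.1 CPM in metastasis livers (log2 fold changes -3.96 and -5.14, adjusted p = 0.0230 and 0.0115). Its sham livers differed widely, and without sham liver 1 the values were -2.99 and -4.16. With any 1 liver left out they lay between -4.54 and -2.99 and between -5.87 and -4.16. Nqo1, a quinone reductase, stood at 15.3 and 12.7 CPM in sham and between 3.24 and 4.84 CPM in the tumor livers (-1.65 and -1.95, adjusted p = 0.0223 and 0.0131). Cyp1a1, another target of the receptor, was not called. Its sham livers also differed widely, at 32.5 CPM in sham liver 1 and 0.475 CPM in sham liver 2, against 0.0309 to 0.560 CPM in the tumor livers. Tiparp and Cyp1b1, further targets of the receptor, lay above both sham livers in all 4 tumor livers and were not called. The log2 fold changes of Tiparp were 3.48 and 3.86 (adjusted p = 0.0765 and 0.0520), and those of Cyp1b1, at 1.37 CPM or less in every liver, were 2.33 and 2.67 (adjusted p = 0.125 and 0.0810).

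Markers of other cells moved with the groups as well. Hepatocyte markers were abundant in every liver, and the summed level of the 9 tested ones was 118332 to 123070 CPM in sham, 115784 to 155882 CPM in PMN and 151563 to 194160 CPM in metastasis livers. Most of this sum was Alb, at 94225 and 87389 CPM in sham, 120634 and 84337 CPM in PMN, and 156536 and 108399 CPM in metastasis livers. Of these 9, 0 were called higher and 1 (Apoa2) lower in PMN, and 1 (Ahsg) higher and 2 (Apoa2 and Asgr2) lower in metastasis livers, with median log2 fold changes of -0.27 and 0.11. All 7 neutrophil markers were higher in both tumor groups, with a summed level of 3.79 to 4.71 CPM in sham, 211 to 408 CPM in PMN and 318 to 787 CPM in metastasis livers. Of 8 macrophage and Kupffer cell markers, 8 and 7 were called higher (summed 161 to 163, 654 to 799 and 470 to 792 CPM). Of 5 endothelial markers, 2 and 3 were called higher. Of 5 dendritic cell markers 0 were called in either group, with summed levels of at most 13.9 CPM. Of 6 epithelial markers 0 and 1 were called higher (Krt18), with a summed level of 211 to 256 CPM in sham, 244 to 275 CPM in PMN and 364 to 616 CPM in metastasis livers. Nearly all of this sum was Krt8, Krt18 and Cdh1, which sham livers without tumor also held, Krt18 at 72.6 and 99.5 CPM. The sum is thus no measure of tumor or bile duct cells alone. In metastasis livers 4 of the 6 lay above both sham livers, and the median log2 fold change was 0.62. Cdh1 stood at 10.5 and 19.4 CPM in sham and 78.2 and 30.9 CPM in metastasis livers (adjusted p = 0.0612), and Krt8 at 126 and 135 CPM and 306 and 164 CPM (adjusted p = 0.128). Epcam, Krt7 and Krt19 had means below 1 CPM in each group. All 5 erythroid markers were called higher in metastasis and 0 in PMN livers. All 12 acute phase genes were called higher in both groups, with median log2 fold changes of 3.52 and 3.23. The part of these shifts in the values of the 9 enzymes was not tested.

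Metastasis and PMN livers were compared directly, which also tests whether the differences from sham were unequal. None of the 9 enzymes was called with edgeR, beside 0% of all tested genes, while 13.4% of all genes had an unadjusted p under 0.05. Kmo and Haao were the members with such a p. Without metastasis liver 2, Ido2 and Haao were called lower (log2 differences of -2.14 and -0.97, adjusted p = 0.00161 and 0.0126), beside 16.5% of all genes called. Without metastasis liver 1 neither was called (-0.22 and -0.39, adjusted p = 0.557 and 0.266). The log2 difference was -0.61 for Kmo (SE 0.22, 95% interval -1.13 to -0.09, edgeR adjusted p = 0.340) and -0.65 for Haao (SE 0.26, 95% interval -1.26 to -0.03, adjusted p = 0.360). With 1 liver left out, that of Kmo lay between -0.81 and -0.39. Ido2, Kmo and Haao lay lower in both metastasis livers than in both PMN livers, and 0 members lay higher, beside 21.5% and 21.9% of all genes. DESeq2 called 524 genes in this comparison, but none of the members. For Acmsd the 95% interval of the difference reached from -1.30 to 2.11 and for Tat from -1.47 to 0.79, so that sizable differences in either direction were not detectable with these livers.

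The genes whose levels across the 6 livers were most like those of the starting enzymes were found by Pearson correlation of log2 CPM among 7250 other genes at a mean of 10 CPM or more. For Tdo2 they were Ythdc1 (r = 0.992), Clasp1 (r = 0.987) and Cpsf2 (r = 0.986). Ythdc1 stood at 37.8 and 37.0 CPM in sham, 49.7 and 44.7 CPM in PMN, and 48.8 and 33.3 CPM in metastasis livers, and thus shared the wide gap between the metastasis livers. For Tat they were Atxn3 (r = 0.995), Arhgef3 (r = 0.989) and Aak1 (r = 0.988). Arhgef3 stood at 46.1 and 25.7 CPM in sham, 97.4 and 63.8 CPM in PMN, and 94.0 and 56.2 CPM in metastasis livers, whereas Atxn3 stayed between 14.4 and 16.9 CPM throughout. These values describe 6 livers in 3 groups, and both genes of a pair were read in the same libraries with the same scaling factors.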

How the data were processed

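Livers of 6 mice (2 sham, 2 intra-C, 2 intra-S) were analyzed, each as 1 library of polyadenylated RNA. The authors aligned reads to mm10 with HISAT2 2.1.0, counted uniquely aligned reads on exons with featureCounts (Subread 2.0.6) and deposited raw counts per gene. The deposited TPM values were calculated by the authors from these counts and gene lengths. The annotation and the use of strand in counting are not given in the sources used here. In the GENCODE annotation of GRCm38, no member shared exon bases with another gene except Acmsd, with 3.32% of its exon bases on the opposite strand.

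Everything further was computed here with R 4.3.3, edgeR 4.0.16, limma 3.58.1, DESeq2 1.42.0 and Python 3.11.15. edgeR's quasi-likelihood test used raw counts, TMM, filterByExpr (count minimum 10), 1 fit over 6 livers and Benjamini-Hochberg adjustment over 16370 genes. It was tested on simulated data. Library totals were 32838321 to 43368309 counts, at which 3 counts equal 0.0679 to 0.0928 CPM. Log2 CPM used a prior count of 2. Members and lists were chosen with earlier results of these data known. All members were named, as were list genes called against sham and the 3 genes most like Tdo2 and Tat. Named after their values were seen were Ido1, Tiparp, Cyp1a1, Cyp1b1, Pck1, Tsc22d3 and the epithelial and hepatocyte markers. Alternatives were DESeq2, other scalings and filters, only the 2 groups compared, a replicate block, limma on TPM values (pseudocounts 1 and 0.1) and each liver left out.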

Additional observations from a re-analysis of the deposited data

How the results depend on the processing

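Counts of calls moved with the livers in the fit and with the tool. The direction against sham held in both tumor groups under all 15 alternatives for Ido2, Haao, Hpd and Hgd (lower). It also held for Acmsd and Tat (higher). In PMN against sham livers, 1195 genes were called, with DESeq2 2819, with only the compared groups 4771, and without 1 liver each 0 to 4657. In metastasis against sham livers it was 1756, with DESeq2 3530, with only the compared groups 392, and without 1 liver 0 to 5693. In metastasis against PMN livers it was 0, with DESeq2 524, and without 1 liver 0 to 2884. Members called higher in PMN livers numbered 0, and 1 with DESeq2, 2 with only the compared groups and 0 to 3 without 1 liver. Members called lower there numbered 0, and 1 with DESeq2, by library totals and on both TPM scales, 3 with only the compared groups and 0 to 3 without 1 liver. In metastasis livers, 0 were higher, and 1 with DESeq2 and 0 to 3 without 1 liver, and 1 was lower, and 2 by library totals, 3 on both TPM scales, 0 with only the compared groups and 0 to 4 without 1 liver. Between the tumor groups 0 members were lower, and 0 to 2 without 1 liver. Of the other pathway genes, 4 were lower in PMN livers, and 10 with DESeq2, 7 on both TPM scales, 14 with only the compared groups and 0 to 14 without 1 liver. In metastasis livers 8 were lower, and 15 with DESeq2, 13 by library totals, 14 on log2(TPM + 1), 15 on log2(TPM + 0.1), 2 with only the compared groups and 0 to 15 without 1 liver. In PMN livers 1 was higher, and 0 by library totals and on both TPM scales and 0 to 1 without 1 liver, and in metastasis livers 0 were higher, and 1 with DESeq2 and 0 to 1 without 1 liver. The alternatives for these other genes were chosen after the data were seen. The cause of these differences was not tested.

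Small differences changed sign. For PMN against sham, Kmo was at -0.0032, at 0.0014 by TMM without the 100 most abundant genes, at 0.0022 with no filter and at -0.22 to 0.21 without 1 liver, and Kynu was at -0.40 to 0.16 without 1 liver. For metastasis against sham, Tdo2 was at -0.10 by library totals, -0.16 on log2(TPM + 1), -0.17 on log2(TPM + 0.1) and -0.32 to 0.58 without 1 liver, and Kynu at -0.53 to 0.050. Between the tumor groups the range without 1 liver was -0.78 to 0.12 for Tdo2, -0.43 to 0.19 for Kynu, -0.64 to 1.70 for Acmsd, -0.89 to 0.063 for Tat, -0.65 to 0.0015 for Hgd and -0.60 to 0.46 for Hpd, which was at -0.012 by library totals and -0.18 on both TPM scales. Library totals without TMM lowered the median of all genes by 0.26 in PMN and 0.27 in metastasis livers.

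With the replicate number as a block, 932 genes were called in PMN and 1507 in metastasis livers against sham, 1 member (Tat) was called higher in PMN livers, and Hpd was at -0.030 between the tumor groups. The deviations of same-numbered livers correlated across genes by -0.03 (sham and PMN), 0.08 (sham and metastasis) and 0.04 (PMN and metastasis). The labels do not say whether the numbers pair the livers. Correlations over all genes cannot exclude a pairing that acts on some of them.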

Other observations

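The gap between livers of one group was itself uneven over the 9 enzymes. Among 7259 genes at a mean of 10 CPM or more, 0.565% differed between the PMN livers at least as much as Acmsd, 1.07% between the sham livers at least as much as Tat, and 4.30% between the metastasis livers at least as much as Ido2. Haao differed by 1.02 times between the sham livers, 1.19 times between the PMN livers and 1.49 times between the metastasis livers. Tiparp had a gap like that of Acmsd, with 4.78 and 4.82 CPM in sham, 88.5 and 18.5 CPM in PMN, and 114 and 25.4 CPM in metastasis livers.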
